A study of Mus musculus with 10 samples.

Results

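The semaphorin, ephrin, SLIT and netrin guidance genes were followed across sorted mouse mammary epithelial cells. They were chosen by gene symbol. A gene was taken if its symbol begins with Sema, Plxn, Slit, Unc5 or Efn, if it is a numbered Epha or Ephb receptor, or if it is Nrp1, Nrp2, Robo1, Robo2, Robo3, Ntn1, Ntn3, Ntn4, Neo1 or Dcc. The rule found 75 genes among the 19935 genes with a probe set of a single symbol, and each was represented by its probe set of highest mean. These were 20 semaphorins, 9 plexins, 2 neuropilins, 8 ephrins, 13 Eph receptors, 3 Slits, 3 Robos, 3 netrins and 6 netrin receptors, together with 8 genes of related name that belong to none of these families (Slitrk1 to Slitrk6, Unc5cl and Unc50). Ephb2, which has no probe set of its own under this rule, was not analysed here.

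The cells came from virgin female mice aged 8 to 12 weeks, control or Pygo2 SSKO, that were littermates caged together. Cells bearing the endothelial marker CD31, the leukocyte marker CD45 or the erythroid marker TER119 were sorted away from collagenase-digested glands, and the rest were divided by CD29, CD24 and CD61. The 3 groups were CD29-high CD24-positive cells of control mice (mammary stem cells and basal cells, called control basal, 4 arrays), the same gate from SSKO mice (SSKO basal, 3 arrays), and CD29-low CD24-positive CD61-negative mature luminal cells of control mice (luminal, 3 arrays). SSKO is not spelled out by the submitters, and the series title describes the mutant cells as Pygo2-null. The promoter that drives the deletion, the controls' exact alleles and the number of mice behind each sample are not stated in the labels used here. The sample titles call the arrays biological replicates. With the mice behind each not stated, the p-values reflect only variation among these arrays, and any technical part of it is unknown. Pygo2 encodes a nuclear co-factor of beta-catenin that binds methylated histone H3, and it fell by 2.34 in SSKO basal cells (SE 0.32, adjusted p = 0.0441).

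Guidance cues were first studied in growing axons, and the same ligands and receptors also control adhesion, migration and branching in epithelia. Secreted class 3 semaphorins bind neuropilins, which signal through plexins, whereas most membrane-bound semaphorins bind plexins directly. Ephrins are tethered to the cell surface and bind Eph receptor tyrosine kinases on neighbouring cells, with signals passing both ways. Slits bind Robo receptors, and netrins bind Dcc, Neo1 and the Unc5 family. In the mammary gland, Slit and Robo proteins and netrin-1 with neogenin are known for roles in duct branching and in holding the basal and luminal layers together.

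Levels are log2(intensity + 16) of 1 probe set on 1 array, and a log2 difference of 1 is a doubling. Values by array are given in the order of the array numbers. A probe's level was set only against the same probe on other arrays. Of the 75 genes, 69 lay above the dimmest 25% of probe sets (a mean log2 level of 6.74) and entered the limma fit across 15815 genes. The 6 left out as dim were Epha3, Epha5, Epha6, Plxnc1, Slitrk2 and Slitrk6. The word called marks an adjusted p under 0.05, and each comparison is a difference of group means with its standard error.

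Marker lists placed the arrays as labelled. The mean log2 level of 20 basal and myoepithelial markers was 12.31 to 12.45 in control basal, 12.34 to 12.44 in SSKO basal and 8.21 to 9.83 in luminal arrays, with luminal array 3 the highest of the luminal group. The mean of the 17 luminal markers measured, of 20 listed, was 9.30 to 9.58, 9.73 to 9.97 and 12.30 to 12.36 in the same order. The mean of 12 fibroblast markers was lower in luminal arrays, at 7.16 to 7.55, than in control basal (9.48 to 10.56) and SSKO basal arrays (9.34 to 9.92), whose ranges overlapped. The mean of 9 pericyte markers was 9.03 to 9.19 in control basal, 9.13 to 9.51 in SSKO basal and 8.26 to 8.45 in luminal arrays. The mean of 14 endothelial markers differed within the basal groups, at 9.85 in control basal array 1 and 8.27 to 8.75 in the other control basal arrays, 10.80, 8.14 and 9.75 in SSKO basal arrays 1 to 3, and 8.01 to 8.40 in luminal arrays.

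The ligands Slit3 and Slit2 and the receptor Ephb1 were low in luminal cells, and the ligand Sema4f was high there. The upstream sequences of these 4 genes are shown first. Each is the 250 bases before a RefSeq transcript start of build GRCm38.p6, read 5′ to 3′ on the gene's strand, at chr11:35121206-35121455 (plus strand) for Slit3, chr5:47982905-47983154 (plus) for Slit2, chr9:102354694-102354943 (minus) for Ephb1 and chr6:82939770-82940019 (minus) for Sema4f. Capitals mark matches to any of 6 motifs searched on both strands. TCF/LEF sites were searched as CTTTGA, the E-box of SNAIL and ZEB as CAGGTG, the site of GATA factors as AGATAA and forkhead sites as TGTTTAC. The box of TATA promoters was searched as TATAAA, and the GC box as GGGCGG.
Slit3: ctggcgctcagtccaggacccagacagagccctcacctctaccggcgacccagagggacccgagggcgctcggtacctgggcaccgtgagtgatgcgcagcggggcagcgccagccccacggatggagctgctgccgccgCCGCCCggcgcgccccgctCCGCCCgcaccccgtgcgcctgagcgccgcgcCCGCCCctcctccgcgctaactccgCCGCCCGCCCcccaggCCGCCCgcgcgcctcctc
Slit2: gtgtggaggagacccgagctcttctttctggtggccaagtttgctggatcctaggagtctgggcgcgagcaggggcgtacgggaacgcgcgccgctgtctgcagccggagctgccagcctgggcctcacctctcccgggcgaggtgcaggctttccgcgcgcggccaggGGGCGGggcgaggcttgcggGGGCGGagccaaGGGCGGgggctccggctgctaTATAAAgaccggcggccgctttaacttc
Ephb1: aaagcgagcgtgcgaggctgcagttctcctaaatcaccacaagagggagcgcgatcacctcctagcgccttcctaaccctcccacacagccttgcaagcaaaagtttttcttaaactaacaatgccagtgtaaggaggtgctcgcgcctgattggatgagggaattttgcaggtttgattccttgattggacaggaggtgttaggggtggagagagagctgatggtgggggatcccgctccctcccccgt
Sema4f: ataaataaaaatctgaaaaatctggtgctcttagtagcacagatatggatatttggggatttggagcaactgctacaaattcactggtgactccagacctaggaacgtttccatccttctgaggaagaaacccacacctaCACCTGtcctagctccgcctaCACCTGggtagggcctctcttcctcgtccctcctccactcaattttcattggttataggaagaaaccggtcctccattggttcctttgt
The Slit3 window held 6 GC boxes, a pair of them overlapping. The Slit2 window held 3 GC boxes and a TATA box. The Ephb1 window held none of the motifs, and the Sema4f window held 2 E-boxes and no GC box. The windows of Sema5a, the gene with the largest fall, and of Plxna3 are not shown. The Sema5a window held 5 GC boxes and the Plxna3 window 1. RefSeq windows were found for 64 of the 75 genes. Of 33 windows of 28 genes called lower in luminal cells, 72.7% held a GC box, 9.09% the TCF/LEF letters, 12.1% the E-box, 3.03% the GATA letters, 0% the forkhead letters and 6.06% a TATA box. Of 13 windows of 7 genes called higher, 84.6% held a GC box, 23.1% the E-box and 0% any of the other 4 motifs. Over all 32851 windows of that table, which also covers noncoding genes, the shares were 32.7% for the GC box, 13.8% for TCF/LEF, 17.2% for the E-box, 9.99% for GATA, 3.17% for forkhead and 12.4% for TATA. A match is a run of letters and not a measured binding site.

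**Figure D1:**
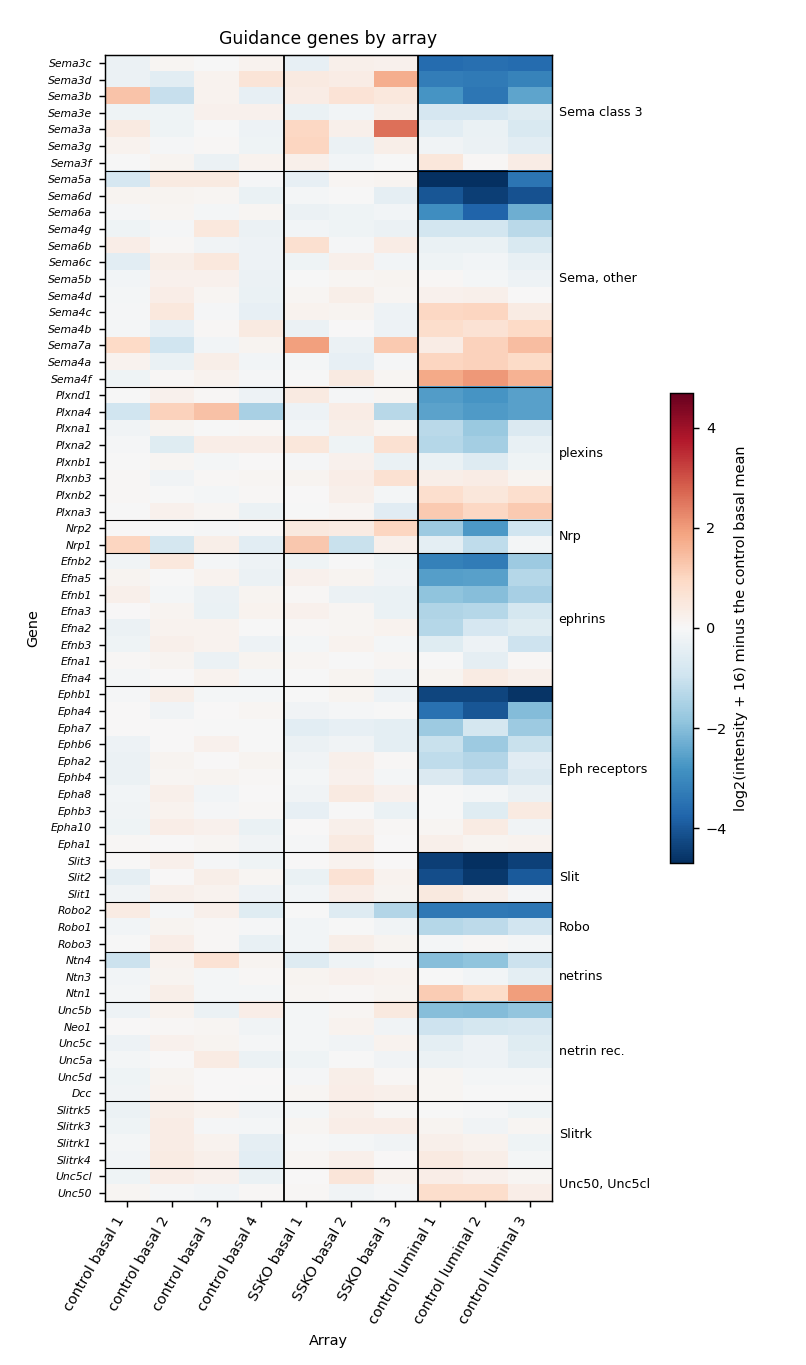
Each row is 1 of the 69 guidance genes tested and each column 1 of the 10 arrays; colour is the log2(intensity + 16) level minus the gene's control basal mean, and rows are grouped by family. The 3 luminal columns hold most of the strong colour, with 33 genes called lower and 8 called higher there, while the SSKO basal columns differ mainly in single arrays, such as array 3 for Sema3a. Differences beyond the ends of the colour scale take the end colour.

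The comparison of luminal with control basal cells asked how the guidance genes differ between the mature luminal gate and the basal gate of control mice. Slit2 and Slit3, their receptor Robo2, the semaphorins Sema3c, Sema5a and Sema6d, and the Eph receptor Ephb1 were all over 8-fold lower in luminal cells. A smaller group was higher there: the class 4 semaphorins Sema4a, Sema4b, Sema4c and Sema4f, the plexins Plxna3 and Plxnb2, and the netrin Ntn1. Of the 69 genes tested, 33 were called lower and 8 higher in luminal cells, and 28 were not called. That is 59.4% called, beside 44.3% of all genes tested, with 47.8% called lower beside 19.7% of all genes and 11.6% called higher beside 24.6%. The median log2 difference was -0.45 for the guidance genes and 0.07 for all genes. In bulk samples, fewer cells of a type and less RNA per cell cannot be told apart.

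Of the 33 genes called lower, 26 fell over 2-fold, 15 over 4-fold and 10 over 8-fold, and 3 of the 8 called higher rose over 2-fold. In luminal arrays the mean of 8 of the 33 lay under 6.74, the dim level, so the size of their fall is uncertain. For 9 of the 69 genes tested, the control basal mean was at or over that level and the luminal mean under it. The fit was therefore repeated with no filter. It called 35 of all 75 lower and 8 higher, 57.3% beside 35.6% of all genes. The arrays of both groups did not overlap for 43 of the 69, or 62.3%, against 46.3% of all genes. Both sides of the ligand and receptor pairs were among them, with 17 of 34 ligands lower and 5 higher, and 16 of 29 receptors lower and 2 higher. Of the 6 tested genes of related name, Unc50 was called higher; Unc5cl and the 4 Slitrk genes tested differed by -0.09 to 0.21 and were not called. Markers of stromal cells moved with these falls. The 10 fibroblast markers above the dim level, of 12 listed, were all called lower in luminal cells, as were 6 of the 9 pericyte markers, with 1 pericyte marker higher. The part of either list in the result was not tested. Of the endothelial markers 1 of 14 was called lower and 1 higher, of the immune markers above the dim level 3 of 10 lower and none higher, of the adipocyte markers 2 of 7 lower and none higher, and of the Schwann cell and nerve markers 3 of 7 lower and 1 higher. These counts stand beside 19.7% of all genes called lower and 24.6% called higher. Luminal array 3 was the highest of the luminal arrays for 23 of the 33, as it was for 60.2% of all genes called lower; without it 40 of the 69 were called, 39 of them in common.

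**Figure D2:**
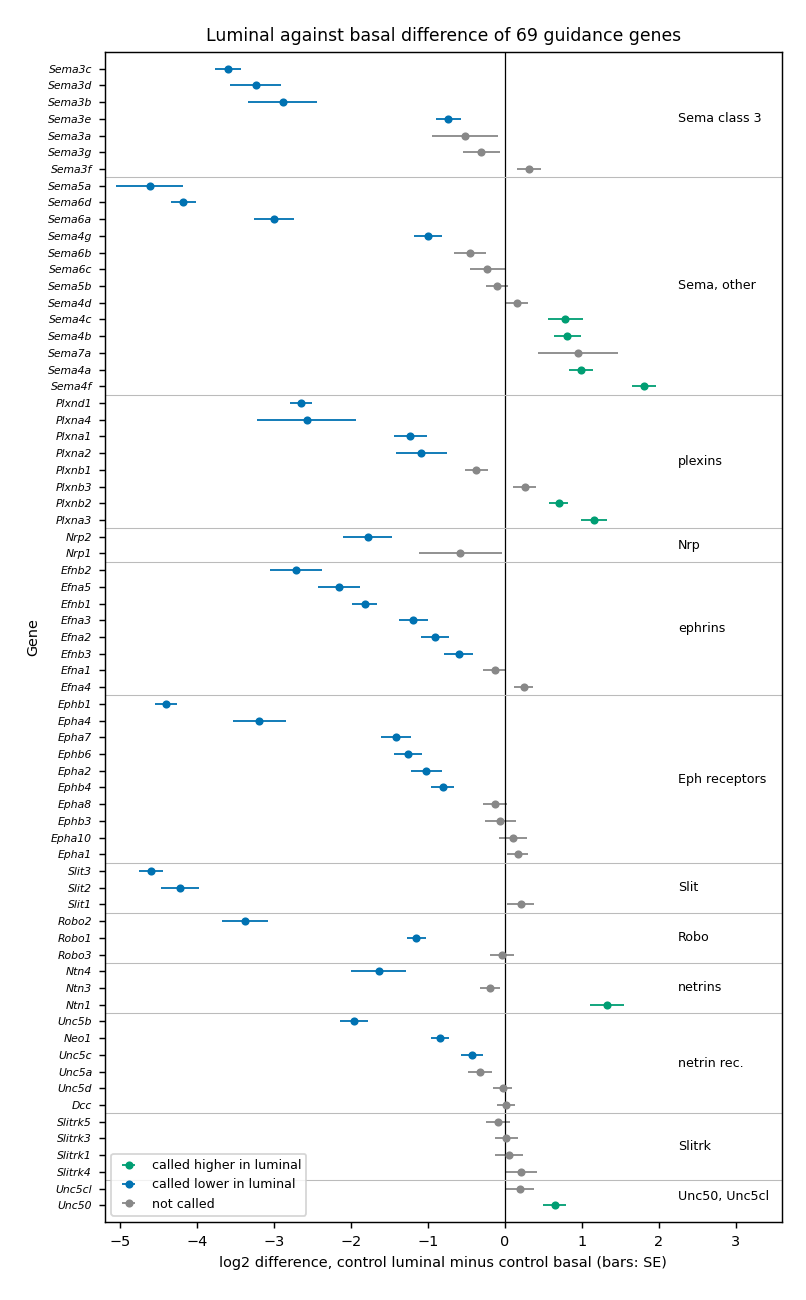
Points give the log2 difference of each of the 69 genes, control luminal minus control basal, bars give 1 standard error, and colour gives the call (adjusted p under 0.05). Slit3, Slit2, Ephb1, Sema5a and Sema6d lie below -4, and Sema4f, at 1.81, lies farthest to the right.

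Slits are secreted ligands of the Robo receptors. Slit3 had log2 levels of 11.06, 11.27, 11.00 and 10.84 in the 4 control basal arrays, 11.05, 11.21 and 11.08 in the 3 SSKO basal arrays and 6.61, 6.09 and 6.65 in the 3 luminal arrays. All luminal arrays lay far below all basal arrays, and the mean fell by 4.60 (SE 0.16, adjusted p = 7.82e-09), or 24.2-fold, from 11.04 ± 0.18 (SD, n = 4) to 6.45 ± 0.31 (SD, n = 3). Slit2 read 10.18, 10.63, 10.88 and 10.68 in the 4 control basal arrays, 10.27, 11.29 and 10.77 in the 3 SSKO basal arrays and 6.41, 6.04 and 6.66 in the 3 luminal arrays. Its luminal and basal arrays were as fully separated, and the mean fell by 4.22 (SE 0.25, adjusted p = 1.8e-07), or 18.7-fold. Both luminal means lay under the dim level. Slit1, the third member, did not pass the test, with a difference of 0.21 (SE 0.17, adjusted p = 0.387) between means of 7.21 ± 0.24 and 7.42 ± 0.25.

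The Robo receptors split in the same way. Robo2 had values of 9.21, 8.77, 9.07 and 8.24 in the 4 control basal arrays, 8.82, 8.23 and 7.43 in the 3 SSKO basal arrays and 5.45, 5.45 and 5.44 in the 3 luminal arrays. The luminal arrays were nearly identical and lay under the dim level, and the mean fell by 3.37 (SE 0.30, adjusted p = 4.31e-06), or 10.4-fold. Robo1, the receptor best known in the mammary gland, had values of 10.68, 10.92, 10.86 and 10.74 in the 4 control basal arrays, 10.66, 10.77 and 10.64 in the 3 SSKO basal arrays and 9.47, 9.58 and 9.89 in the 3 luminal arrays. No arrays overlapped, yet the luminal level stayed well over the dim level, and the mean fell by 1.15 (SE 0.13, adjusted p = 2.6e-05). Robo3, a divergent family member, gave -0.04 (SE 0.16, adjusted p = 0.888) and was not called.

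**Figure D3:**
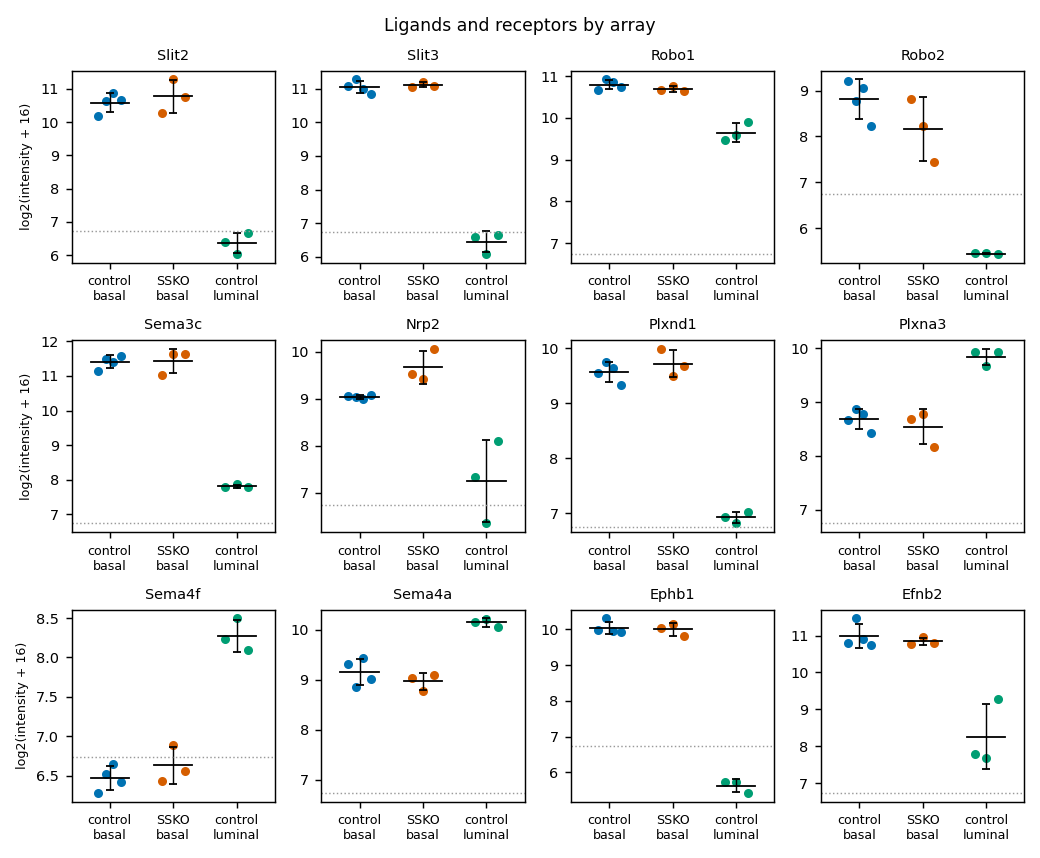
Log2(intensity + 16) of 12 ligands and receptors is plotted by array for control basal, SSKO basal and control luminal cells; bars are the mean and 1 SD, the dotted line is the dim level of 6.74, and each panel has its own axis. Luminal arrays lie below every basal array for Slit2, Slit3, Robo1, Robo2, Sema3c, Nrp2, Plxnd1, Ephb1 and Efnb2, and above every basal array for Plxna3, Sema4f and Sema4a.

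The class 3 semaphorins, which are secreted and act through neuropilins and plexins, had 4 of 7 members lower in luminal cells and none higher. That is 57.1% lower beside 19.7% of all genes, and none higher beside 24.6%. Sema3c had log2 levels of 11.15, 11.50, 11.39 and 11.58 in the 4 control basal arrays, 11.02, 11.63 and 11.62 in the 3 SSKO basal arrays and 7.78, 7.87 and 7.78 in the 3 luminal arrays. Its luminal arrays lay close together and far below the basal arrays, and the mean fell by 3.59 (SE 0.17, adjusted p = 3.86e-08), or 12.1-fold. Sema3d read 8.64, 8.41, 9.08 and 9.53 in the 4 control basal arrays, 9.35, 9.27 and 10.63 in the 3 SSKO basal arrays and 5.67, 5.59 and 5.77 in the 3 luminal arrays. The luminal arrays were again tight and under the dim level, and the mean fell by 3.24 (SE 0.33, adjusted p = 1.37e-05), or 9.43-fold. Sema3b read 10.82, 8.41, 9.64 and 9.09 in the 4 control basal arrays, 9.84, 10.13 and 9.97 in the 3 SSKO basal arrays and 6.70, 6.10 and 6.99 in the 3 luminal arrays. Control basal arrays were widely spread, from array 2 up to array 1, but lay above all luminal arrays, and the mean fell by 2.89 (SE 0.45, adjusted p = 0.000296). Sema3e, the class 3 member that can bind Plxnd1 without a neuropilin, fell by 0.73 (SE 0.16, adjusted p = 0.00346) from 7.23 ± 0.23 to 6.49 ± 0.10. Sema3a, Sema3f and Sema3g did not pass the test, with differences of -0.52, 0.32 and -0.30.

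Among the 13 other semaphorins, most of which span the membrane, 4 were lower and 4 higher in luminal cells. Each is 30.8%, beside 19.7% of all genes lower and 24.6% higher. Sema5a had log2 levels of 10.59, 11.79, 11.79 and 11.32 in the 4 control basal arrays, 11.00, 11.46 and 11.52 in the 3 SSKO basal arrays and 6.41, 5.91 and 7.95 in the 3 luminal arrays. Luminal array 3 was the highest luminal array, still below every basal array, and the mean fell by 4.61 (SE 0.43, adjusted p = 6.93e-06), or 24.5-fold. Sema6d, a ligand of Plxna1, read 11.23, 11.24, 11.21 and 10.79 in the 4 control basal arrays, 11.04, 11.10 and 10.70 in the 3 SSKO basal arrays and 7.10, 6.68 and 7.04 in the 3 luminal arrays. The luminal arrays lay about as far apart as the basal arrays did, with a wide gap between the groups, and the mean fell by 4.18 (SE 0.16, adjusted p = 1.29e-08), or 18.1-fold. Sema6a, a ligand of Plxna2 and Plxna4, read 11.23, 11.39, 11.19 and 11.37 in the 4 control basal arrays, 11.03, 11.08 and 11.16 in the 3 SSKO basal arrays and 8.36, 7.52 and 8.99 in the 3 luminal arrays. Luminal array 3 was again the highest of its group, and the mean fell by 3.00 (SE 0.26, adjusted p = 3.88e-06), or 8.01-fold. Sema4g fell by 1.00 (SE 0.19, adjusted p = 0.00105) and was the 1 class 4 member called lower. Sema4d, Sema5b, Sema6b, Sema6c and Sema7a differed by -0.45 to 0.95 and were not called.

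The 4 membrane semaphorins called higher all belong to class 4. Sema4f read 6.28, 6.52, 6.64 and 6.42 in the 4 control basal arrays, 6.43, 6.89 and 6.55 in the 3 SSKO basal arrays and 8.24, 8.50 and 8.09 in the 3 luminal arrays. The control basal arrays lay under the dim level and all luminal arrays over it, and the mean rose by 1.81 (SE 0.15, adjusted p = 2.78e-06), or 3.51-fold. Sema4a had values of 9.31, 8.85, 9.43 and 9.02 in the 4 control basal arrays, 9.04, 8.78 and 9.10 in the 3 SSKO basal arrays and 10.15, 10.22 and 10.06 in the 3 luminal arrays. Luminal and basal arrays did not overlap, and the mean rose by 0.99 (SE 0.15, adjusted p = 0.000309). For Sema4b the values were 9.39, 9.08, 9.53 and 9.89 in the 4 control basal arrays, 9.20, 9.49 and 9.23 in the 3 SSKO basal arrays and 10.30, 10.15 and 10.41 in the 3 luminal arrays. The groups did not overlap, and the mean rose by 0.81 (SE 0.18, adjusted p = 0.00302). Sema4c, a ligand of Plxnb2, rose by 0.79 (SE 0.22, adjusted p = 0.0132) from 10.75 ± 0.37 to 11.54 ± 0.35, but control basal array 2, at 11.24, lay above luminal array 3, at 11.14. The call of Sema4c ended without luminal array 1 (adjusted p = 0.0567) or luminal array 2 (adjusted p = 0.0607).

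Sema4d, a ligand of Plxnb1, had a pair of probe sets that gave different answers. Probe set 10409236, the one of higher mean, differed by 0.15 (SE 0.15, adjusted p = 0.462) and was not called. Probe set 10409240 averaged 8.50 ± 0.38 (SD, n = 4) in control basal and 10.41 ± 0.30 (SD, n = 3) in luminal arrays, a rise of 1.91 (SE 0.22, adjusted p = 2.7e-05) in a fit over 17296 probe sets. Ephb1 behaved likewise: beside the probe set reported below, probe set 10596115 differed by -0.34 (SE 0.21, adjusted p = 0.237) and was not called. Sema6b has a pair of probe sets with identical values on every array, which carry the same measurement. Epha10 and Unc5d were not called by either of their probe sets, and both probe sets of Slitrk2 were dim.

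**Figure D4:**
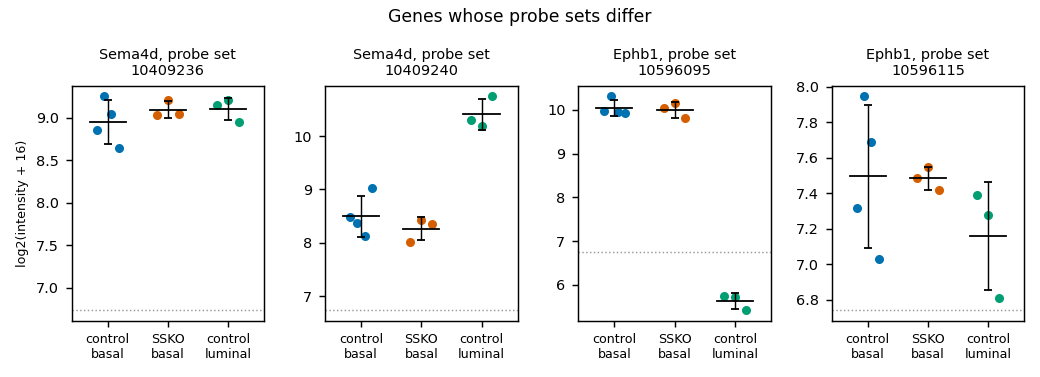
Log2(intensity + 16) is plotted by array for both probe sets of Sema4d and both of Ephb1, with the mean and 1 SD and a dotted line at the dim level of 6.74; each panel has its own axis. For Sema4d only 10409240 has its luminal arrays above all basal arrays, and for Ephb1 only 10596095 has its luminal arrays below all basal arrays.

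Plexins are the signalling receptors of semaphorins, and 4 of the 8 tested were lower and 2 higher in luminal cells. That is 50% lower beside 19.7% of all genes, and 25% higher, near the 24.6% of all genes. Plxnd1 had log2 levels of 9.56, 9.75, 9.63 and 9.33 in the 4 control basal arrays, 9.99, 9.50 and 9.67 in the 3 SSKO basal arrays and 6.93, 6.81 and 7.02 in the 3 luminal arrays. The luminal arrays lay just over the dim level and far below the basal arrays, and the mean fell by 2.65 (SE 0.15, adjusted p = 1.23e-07), or 6.27-fold. Plxna4 read 9.23, 11.24, 11.54 and 8.64 in the 4 control basal arrays, 9.92, 10.52 and 8.86 in the 3 SSKO basal arrays and 7.65, 7.49 and 7.63 in the 3 luminal arrays. The control basal arrays fell into a high pair and a low pair, all above the luminal arrays, and the mean fell by 2.58 (SE 0.65, adjusted p = 0.00684) with the widest standard error of the family. Plxna1 read 11.11, 11.43, 11.29 and 11.35 in the 4 control basal arrays, 11.15, 11.56 and 11.40 in the 3 SSKO basal arrays and 10.04, 9.55 and 10.60 in the 3 luminal arrays. The groups did not overlap, and the mean fell by 1.23 (SE 0.21, adjusted p = 0.000666). Plxna2 fell by 1.09 (SE 0.33, adjusted p = 0.0194), with luminal array 3 (8.89) above control basal array 2 (8.66), and its adjusted p was 0.0519 without control basal array 3, 0.0759 without luminal array 1 and 0.0928 without luminal array 2.

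Plxna3 went the other way, with 8.66, 8.88, 8.78 and 8.43 in the 4 control basal arrays, 8.68, 8.78 and 8.16 in the 3 SSKO basal arrays and 9.93, 9.67 and 9.93 in the 3 luminal arrays. All luminal arrays lay above all basal arrays, and the mean rose by 1.16 (SE 0.17, adjusted p = 0.000199), or 2.23-fold. Plxnb2 had 11.45, 11.38, 11.32 and 11.44 in the 4 control basal arrays, 11.40, 11.64 and 11.30 in the 3 SSKO basal arrays and 12.17, 11.93 and 12.19 in the 3 luminal arrays. The separation was smaller but complete, and the mean rose by 0.70 (SE 0.12, adjusted p = 0.000683). Plxnb1, at -0.37 (SE 0.15, adjusted p = 0.0626), and Plxnb3, at 0.26 (SE 0.15, adjusted p = 0.189), did not overlap between the groups but did not pass the test.

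The neuropilins, co-receptors of class 3 semaphorins and of VEGF, differed from each other in spread. Nrp2 had log2 levels of 9.06, 9.04, 8.99 and 9.08 in the 4 control basal arrays, 9.52, 9.43 and 10.06 in the 3 SSKO basal arrays and 7.33, 6.35 and 8.09 in the 3 luminal arrays. The control basal arrays lay close together and above all luminal arrays, and the mean fell by 1.78 (SE 0.32, adjusted p = 0.000844). Nrp1 had 9.52, 7.70, 8.81 and 8.03 in the 4 control basal arrays, 9.77, 7.45 and 8.75 in the 3 SSKO basal arrays and 8.05, 7.32 and 8.44 in the 3 luminal arrays. Its groups overlapped, and its difference of -0.58 (SE 0.54, adjusted p = 0.446) was not called. The basal arrays highest for Nrp1, control array 1 and SSKO array 1, were also those highest for the endothelial marker mean (9.85 and 10.80). The part of endothelial RNA in the Nrp1 level was not tested.

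Of the 8 ephrins, 6 were lower in luminal cells and none higher. That is 75% lower beside 19.7% of all genes, and none higher beside 24.6%. Efnb2, a transmembrane ephrin, had log2 levels of 10.81, 11.46, 10.89 and 10.75 in the 4 control basal arrays, 10.78, 10.96 and 10.78 in the 3 SSKO basal arrays and 7.81, 7.70 and 9.29 in the 3 luminal arrays. Luminal array 3 was the highest luminal array and lay below every basal array, and the mean fell by 2.71 (SE 0.33, adjusted p = 5.42e-05), or 6.56-fold. Efna5, held in the membrane by a lipid anchor, read 10.95, 10.80, 10.99 and 10.57 in the 4 control basal arrays, 11.01, 10.95 and 10.66 in the 3 SSKO basal arrays and 8.22, 8.28 and 9.51 in the 3 luminal arrays. The pattern across arrays was alike, and the mean fell by 2.16 (SE 0.27, adjusted p = 6.74e-05). Efnb1 read 11.56, 11.23, 11.04 and 11.46 in the 4 control basal arrays, 11.38, 11.06 and 11.02 in the 3 SSKO basal arrays and 9.42, 9.33 and 9.76 in the 3 luminal arrays. The groups did not overlap, and the mean fell by 1.82 (SE 0.17, adjusted p = 5.11e-06). Efna3 fell by 1.19 (SE 0.19, adjusted p = 0.000338) and Efna2 fell by 0.91 (SE 0.18, adjusted p = 0.00161). Efnb3 fell by 0.60 (SE 0.19, adjusted p = 0.0229); its call ended without control basal array 2 (adjusted p = 0.0585) or 3 (0.059) and without luminal array 1 (0.0568) or 3 (0.101). Efna1 and Efna4 differed by -0.13 and 0.25 and were not called.

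Of the 10 Eph receptors tested, 6 were lower in luminal cells and none higher. That is 60% lower beside 19.7% of all genes, and none higher beside 24.6%. Ephb1, a receptor of B-class ephrins, had log2 levels of 9.97, 10.31, 9.95 and 9.93 in the 4 control basal arrays, 10.03, 10.16 and 9.80 in the 3 SSKO basal arrays and 5.74, 5.73 and 5.42 in the 3 luminal arrays. The luminal arrays lay under the dim level, and the mean fell by 4.41 (SE 0.14, adjusted p = 6.65e-09), or 21.2-fold. Epha4, which binds ephrins of both classes, read 10.83, 10.65, 10.82 and 10.90 in the 4 control basal arrays, 10.65, 10.76 and 10.78 in the 3 SSKO basal arrays and 7.29, 6.79 and 8.75 in the 3 luminal arrays. Luminal array 3 stood above the other luminal arrays but below all basal arrays, and the mean fell by 3.19 (SE 0.35, adjusted p = 2.18e-05), or 9.12-fold. Epha7 read 9.45, 9.47, 9.43 and 9.44 in the 4 control basal arrays, 8.96, 9.05 and 8.98 in the 3 SSKO basal arrays and 7.76, 8.63 and 7.72 in the 3 luminal arrays. Control basal, SSKO basal and luminal arrays formed 3 ranges with no overlap, and the luminal mean fell by 1.41 (SE 0.19, adjusted p = 0.000118). Epha2, a receptor of A-class ephrins, had 12.01, 12.43, 12.32 and 12.41 in the 4 control basal arrays, 12.12, 12.54 and 12.35 in the 3 SSKO basal arrays and 11.11, 10.93 and 11.78 in the 3 luminal arrays. Its luminal arrays were below all basal arrays but still bright, and the mean fell by 1.02 (SE 0.20, adjusted p = 0.00158). Ephb6, which lacks kinase activity, fell by 1.26 (SE 0.18, adjusted p = 0.000161), and Ephb4 fell by 0.81 (SE 0.15, adjusted p = 0.00116). Epha1, Epha8, Epha10 and Ephb3 differed by -0.13 to 0.17 and were not called.

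The netrins moved in opposite directions. Ntn1 had log2 levels of 8.60, 8.95, 8.60 and 8.58 in the 4 control basal arrays, 8.77, 8.73 and 8.82 in the 3 SSKO basal arrays and 9.87, 9.53 and 10.63 in the 3 luminal arrays. All luminal arrays lay above all basal arrays, and the mean rose by 1.33 (SE 0.22, adjusted p = 0.000472), or 2.51-fold. Ntn4, a netrin of basement membranes, had 8.79, 9.97, 10.49 and 9.92 in the 4 control basal arrays, 9.19, 9.58 and 9.73 in the 3 SSKO basal arrays and 7.80, 7.88 and 8.77 in the 3 luminal arrays. Control basal array 1 was the lowest of its group, at 8.79, and luminal array 3, at 8.77, lay just below it. The mean fell by 1.64 (SE 0.36, adjusted p = 0.00315). Ntn3 differed by -0.19 (SE 0.13, adjusted p = 0.278) and was not called.

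The netrin receptors had 3 of 6 members lower in luminal cells and none higher, and the 50% called is near the 44.3% of all genes. Unc5b had log2 levels of 9.34, 9.77, 9.33 and 9.92 in the 4 control basal arrays, 9.52, 9.67 and 10.04 in the 3 SSKO basal arrays and 7.60, 7.57 and 7.73 in the 3 luminal arrays. The luminal arrays lay close together below the basal arrays, and the mean fell by 1.96 (SE 0.18, adjusted p = 5.26e-06), or 3.89-fold. Neo1, which encodes neogenin, read 11.60, 11.62, 11.69 and 11.43 in the 4 control basal arrays, 11.48, 11.74 and 11.42 in the 3 SSKO basal arrays and 10.63, 10.76 and 10.84 in the 3 luminal arrays. The groups did not overlap and the luminal arrays stayed bright, and the mean fell by 0.84 (SE 0.12, adjusted p = 0.000191). Unc5c fell by 0.43 (SE 0.15, adjusted p = 0.0332), with overlapping arrays, and its adjusted p was 0.0776 without control basal array 2, 0.0766 without control basal array 3, 0.0972 without luminal array 1 and 0.115 without luminal array 3. Dcc, Unc5a and Unc5d differed by 0.01, -0.33 and -0.03 and were not called. Unc50, which shares only the letters of the Unc5 name, read 9.12, 8.97, 8.89 and 9.08 in the 4 control basal arrays, 9.08, 8.86 and 8.96 in the 3 SSKO basal arrays and 9.83, 9.83 and 9.32 in the 3 luminal arrays. Its luminal arrays lay above its basal arrays, and the mean rose by 0.65 (SE 0.15, adjusted p = 0.00363).

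The 6 dim genes did not enter the main fit and are given here by their levels. The fit with no filter called 43 of all 75 genes, beside 35.6% of all genes. Of those, 41 were also called in the main fit. The control basal, SSKO basal and luminal means were 6.69 ± 0.19, 6.50 ± 0.21 and 6.11 ± 0.08 for Epha3, 6.35 ± 0.15, 6.57 ± 0.12 and 6.53 ± 0.31 for Epha5, and 6.41 ± 0.15, 6.65 ± 0.14 and 6.49 ± 0.11 for Epha6. Plxnc1, the plexin that binds Sema7a, had means of 6.40 ± 0.13, 6.29 ± 0.15 and 6.33 ± 0.05, and Slitrk2 had 6.85 ± 0.12, 6.93 ± 0.04 and 6.36 ± 0.10. For Epha3 and Slitrk2, all luminal arrays lay below all basal arrays. Slitrk6 was low except in luminal array 2, with 4.62, 7.74 and 5.08 in luminal arrays 1 to 3. A low value is a low signal and does not show that a gene was silent.

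The cytoplasmic partners, co-receptors, proteases and some further extracellular partners of these pathways were taken as a list of 64 genes, of which 61 were tested. In luminal cells 24 were called lower and 15 higher, 63.9% beside 44.3% of all genes. The share called lower was 39.3% beside 19.7% of all genes, while the share called higher, 24.6%, was the same as over all genes. Dpysl3 and Dpysl2, collapsin response mediators that act downstream of semaphorins, fell by 4.62 (SE 0.33, adjusted p = 8.06e-07) and fell by 4.23 (SE 0.20, adjusted p = 4.11e-08). Fyn, a Src-family kinase, fell by 3.11 (SE 0.16, adjusted p = 6.27e-08). Mical2, an enzyme that oxidises actin, fell by 2.37 (SE 0.19, adjusted p = 2.17e-06), and Flrt2, a ligand of Unc5 receptors, fell by 2.26 (SE 0.32, adjusted p = 0.000144). Dscam, a transmembrane protein that can bind netrin-1, rose by 5.03 (SE 0.27, adjusted p = 9.87e-08), from 6.76 ± 0.21 (SD, n = 4) to 11.79 ± 0.74 (SD, n = 3). Inppl1, a lipid phosphatase that binds Epha2, rose by 3.17 (SE 0.18, adjusted p = 1.38e-07), and the adaptor Grb7 by 3.08 (SE 0.21, adjusted p = 5.19e-07). Chn1, a Rac GTPase-activating protein that acts below Epha4, rose by 2.59 (SE 0.21, adjusted p = 1.77e-06), and Adam10, a protease that cleaves ephrins, by 2.33 (SE 0.17, adjusted p = 8.72e-07). Of 11 tested relatives with names outside the rule, 4 were called lower in luminal cells and none higher, 36.4% called beside 44.3% of all genes and 36.4% lower beside 19.7%: Plxdc2 (-3.43), Ntng1 (-2.45), Vegfc (-2.41) and Plxdc1 (-1.30).

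Setting SSKO against control basal cells addressed the effect of losing Pygo2 on these genes within the basal gate. No guidance gene was called, 0 of 69 beside 0.0379% of all genes (6 of 15815). In limma's test 4 of the 69, or 5.8%, had an unadjusted p under 0.05, beside 3.03% of all genes, and every one of the 4 had an adjusted p of 1.00. These were the class 3 semaphorins Sema3a and Sema3d, the plexin Plxnb3 and the Eph receptor Epha7. The median log2 difference was 0.05, against 0.01 over all genes. Of the effector list, 0 of 61 were called and 2 had an unadjusted p under 0.05. The 95% interval of the difference lay within 1 log2 unit of 0 on either side for 58 of the 69 genes, with a median half-width of 0.39. It reached a 2-fold change for the other 11, which were Nrp1, Nrp2, Ntn4, Plxna2, Plxna4, Robo2, Sema3a, Sema3b, Sema3d, Sema5a and Sema7a. The spread behind each interval was estimated over all groups, luminal arrays included. For Sema5a the SD was 1.06 in luminal, 0.57 in control basal and 0.28 in SSKO basal arrays.

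Arrays of the basal groups did not overlap for 5 of the 69, or 7.25%, against 4.46% of all genes. Epha7 lay at 8.96 to 9.05 in SSKO and 9.43 to 9.47 in control basal arrays, a difference of -0.45 (95% interval -0.87 to -0.03, unadjusted p = 0.0392, adjusted p = 1.00). That gap is small against the fall of Epha7 in luminal cells, and both basal groups were tight. Plxnb3 was above control in all SSKO arrays, by 0.38 (95% interval 0.05 to 0.70, unadjusted p = 0.027), and by 0.22 without SSKO array 3. Nrp2 was also above control in all SSKO arrays, by 0.63 (95% interval -0.08 to 1.33, unadjusted p = 0.0774), and by 0.43 without SSKO array 3. The Nrp2 difference was 0.39 without the 3 basal arrays highest in endothelial markers, which leaves SSKO array 2 alone in its group. Sema6a lay below control in all SSKO arrays, with a difference of -0.20, and Ntn3 above, with a difference of 0.18, with intervals of -0.78 to 0.37 and -0.11 to 0.47 that include 0. These intervals and p-values rest on a spread shared with the luminal arrays, not on the basal arrays alone. For Sema6a the SD was 0.74 in luminal, 0.10 in control basal and 0.06 in SSKO basal arrays. For Epha7 the SDs were 0.51, 0.016 and 0.043 in the same order.

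Sema3a, a repellent ligand of Nrp1, had log2 levels of 7.43, 6.79, 6.99 and 6.76 in the 4 control basal arrays, 7.96, 7.21 and 9.57 in the 3 SSKO basal arrays and 6.48, 6.68 and 6.27 in the 3 luminal arrays. SSKO array 3 stood well above the others and SSKO array 2 lay within the control range. The difference was 1.26 (95% interval 0.31 to 2.20, unadjusted p = 0.0138, adjusted p = 1.00), and 0.59 without SSKO array 3. Sema3d was likewise led by SSKO array 3, at 10.63, with a difference of 0.84 (95% interval 0.10 to 1.57, unadjusted p = 0.029) and 0.40 without that array. Robo2 was lowest in the same array, at 7.43, with a difference of -0.66 (95% interval -1.32 to 0.00, unadjusted p = 0.0504) and -0.29 without it. For Slit2 and Slit3, the ligands of Robo2, the intervals were -0.36 to 0.73 and -0.28 to 0.42. Dcc, near the dim level in every array, had 6.53, 6.85, 6.72 and 6.70 in the 4 control basal arrays, 6.79, 7.01 and 6.95 in the 3 SSKO basal arrays and 6.79, 6.68 and 6.66 in the 3 luminal arrays, and its groups overlapped with a difference of 0.22 (unadjusted p = 0.0906).

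Sema7a, a lipid-anchored semaphorin, had log2 levels of 9.72, 7.87, 8.69 and 8.93 in the 4 control basal arrays, 10.74, 8.52 and 10.05 in the 3 SSKO basal arrays and 9.14, 9.87 and 10.25 in the 3 luminal arrays. Control array 1 and SSKO arrays 1 and 3 were the highest basal arrays, and these were also the 3 basal arrays with the highest endothelial marker mean. The difference was 0.97 (95% interval -0.19 to 2.12, unadjusted p = 0.0918). It was 0.48 without SSKO array 1, 1.59 without SSKO array 2 and 0.02 without those 3 arrays. Leaving out the 3 arrays keeps SSKO array 2 alone in its group and drops the basal arrays highest for Sema7a. Sema3a, Sema3g and Sema6b were likewise highest in the same 3 of the 7 basal arrays, so that 4 of 69 guidance genes had that order, beside 3.47% of all genes. Without the 3 arrays the differences of Sema3a and Sema3d were 0.37 and 0.27. How far endothelial RNA accounts for these levels was not tested.

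**Figure D5:**
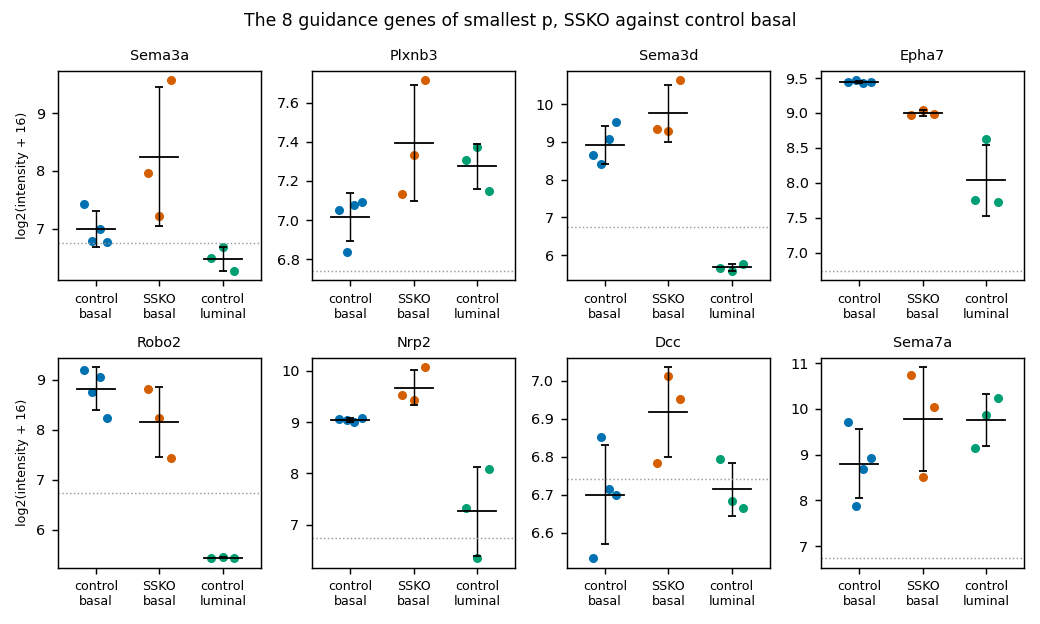
Log2(intensity + 16) by array is plotted for the 8 guidance genes of smallest unadjusted p between SSKO and control basal cells; bars are the mean and 1 SD, the dotted line is the dim level of 6.74, and each panel has its own axis. Only Epha7, Plxnb3 and Nrp2 of the 8 have SSKO arrays clear of all control basal arrays, and no adjusted p was under 0.05.

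Set against luminal cells, SSKO basal cells had 34 guidance genes higher and 8 lower, 60.9% of the 69 called beside 42.3% of all genes, of which 19% were higher and 23.3% lower. The median was 0.63, against -0.03 over all genes. This comparison shares its SSKO arrays and its luminal arrays with the comparisons above. Slit3 was higher by 4.67 (SE 0.17, adjusted p = 2.1e-08) in SSKO basal cells, Slit2 by 4.41 (SE 0.26, adjusted p = 3.03e-07) and Ephb1 by 4.37 (SE 0.15, adjusted p = 2.1e-08). Sema4f was lower, with a difference of -1.65 (SE 0.16, adjusted p = 1.22e-05), and so were Plxna3, at -1.30 (SE 0.18, adjusted p = 0.000159), and Ntn1, at -1.24 (SE 0.23, adjusted p = 0.00134). Unc5c, called in control basal cells, had 0.39 (SE 0.16, adjusted p = 0.064) here. Sema3a, at 1.77 (SE 0.46, adjusted p = 0.00877), and Sema6b, at 0.80 (SE 0.22, adjusted p = 0.0122), were called here and not in the control comparison, but neither was called between SSKO and control basal cells (adjusted p = 1.00). The Sema3a value was 1.11 (adjusted p = 0.00788) without SSKO array 3. It was 0.74 without the 3 arrays bright for endothelial markers, which leaves SSKO array 2 alone in its group. The call of Sema6b ended without SSKO array 1, at 0.59 (adjusted p = 0.0515), and its value was 0.40 without those 3 arrays.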

How the data were processed

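Total RNA of 10 sorted cell samples was hybridised to 1 Affymetrix array each, and the deposited table gives 1 linear intensity per probe set and array. Affymetrix Expression Console 1.1 and PLIER 2.0 are listed in the submitters' processing notes with no role, and the notes used here do not state how arrays were normalized to each other. Array medians were 205 to 228. No detection calls or batch labels were used, and the number of arrays limits the precision. Of 28815 probe sets, 21780 had 1 gene symbol in the platform annotation, 1605 had several and 5430 had none; 21689 symbols matched the RefSeq gene table.

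Values were taken as log2(intensity + 16), which understates changes of dim genes. The dimmest 25% of probe sets were dropped and the brightest probe set stood for each gene. limma 3.58.1 in R 4.3.3 (lmFit, eBayes) was fitted with 3 group means to all 10 arrays, leaving 7 residual degrees of freedom. Tests were two-sided, with Benjamini-Hochberg adjustment over 15815 genes. The steps were tested on simulated data. Every gene of the symbol rule could be named, and each array's values were printed for the largest called changes with groups that do not overlap in each family and the 8 smallest p-values of the SSKO comparison. Other genes were named from the lists of effectors and relatives by size of change. The genes, lists and tests were chosen with earlier results of these data known. Alternatives were the pseudocount, the dim filter, normalization, the probe set rule, the model and leaving out each array. Figures used matplotlib 3.10.9 in Python 3.11.15.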

Additional observations from a re-analysis of the deposited data

Results flagged for a closer look

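In 5 guidance genes, 1 of the 4 control basal arrays stood apart from the other 3 by more than Dixon's 95% critical value for 4 samples. Chance alone marks about 1 in 20 such groups, and 69 were examined. Ephb1 was 10.31 in control basal array 2, against 9.93 to 9.97 in the others. Ntn1 was 8.95 in array 2, against 8.58 to 8.60. Plxnb3 was 6.83 in array 2, against 7.05 to 7.09, which is close to the dim level. Ephb4 was 10.05 in array 1, against 10.38 to 10.44. Sema6d was 10.79 in array 4, against 11.21 to 11.24. For each of the 5 genes, all luminal arrays lay outside the control basal range with these arrays included. Plxnb3 was still not called between luminal and control basal cells.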

How the results depend on the processing

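The number of guidance genes called between luminal and control basal cells was 35 to 43 over the alternatives and 37 to 42 when 1 array was left out, against 41 of 69. The lowest, 35, came from the 49 genes left when the dimmest 50% of probe sets were dropped. The highest, 43, came from all 75 genes with no filter. No guidance gene was called between SSKO and control basal cells under any alternative run. Between SSKO basal and luminal cells 36 to 44 were called in fits with more than 1 SSKO array, against 42. Of the effectors 34 to 42 were called in luminal cells, against 39. The median difference between luminal and control basal cells was -1.02 with the dimmest 50% dropped and -0.36 with a pseudocount of 64. Between SSKO basal and luminal cells the median was 0.52 with array weights, 0.97 with the dimmest 50% dropped, 0.53 with the endothelial score as a covariate, 0.47 with no filter, 0.48 with a pseudocount of 64 and 0.53 after quantile normalization, and 0.45 to 0.71 when 1 array was left out. Between SSKO and control basal cells it was -0.02 to 0.09, against 0.05. Dropping or keeping dim genes changes which genes enter a median; the cause of the other shifts was not tested. Between luminal and control basal cells, the 41 called genes kept their call in 797 of 814 refits and their direction in all of them; the 17 lost calls belonged to Efnb3, Plxna2, Sema4c and Unc5c. Besides refits without 1 array, Efnb3 lost its call with array weights (adjusted p = 0.0517), Plxna2 with the endothelial covariate (0.0512), and Unc5c with the compared groups alone (0.0522) and a pseudocount of 64 (0.0523). With the endothelial covariate, Sema3a and Sema6b lost their calls between SSKO basal and luminal cells (adjusted p = 0.095 and 0.136). Taking the mean over a gene's probe sets added Sema4d to the genes higher in luminal cells.

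Samples with the same replicate number correlated in their deviations from the group means at 0.63, 0.46 and 0.05 between control and SSKO basal arrays. Control and SSKO basal arrays of different number gave -0.44 to 0.43. The same-number values were -0.08, -0.08 and -0.06 between control basal and luminal arrays, and 0.09, 0.03 and 0.18 between SSKO basal and luminal arrays. The numbers were not taken as pairs in the main fit, and whether they mark pairs was not tested. With the replicate number as a block, 42 guidance genes were called between luminal and control basal cells, 0 between the basal groups and 43 between SSKO basal and luminal cells. No detection calls were used, so dim levels limit the size of the largest falls.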
